A study of Zea mays with 6 samples.

Results

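Cytochrome P450 genes outside the hormone and lignin steps were compared between maize ovaries with incompletely fused carpels (*ifc*) and wild-type (WT) ovaries. A row of the expression table was taken when it had no transcription factor family and either its description held "cytochrome P450" or its *Arabidopsis* match carried a CYP name, and rows of 12 families with steps in hormone, phenylpropanoid or flavonoid pathways were left out (CYP73, CYP74, CYP75, CYP84, CYP85, CYP88, CYP90, CYP98, CYP701, CYP707, CYP714 and CYP735). This gave 101 of 25368 rows, each with its own gene identifier and together in 22 CYP families. Of these, 98 were found by the symbol of the *Arabidopsis* match and 57 by the description. The remaining 3, found by the description alone, were 2 NADPH-cytochrome P450 reductases, which are partner proteins and not P450s, and GRMZM2G153119, which had no family. The CYP family named here is that of the best *Arabidopsis* match and can differ from the family of the maize protein.

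Plant P450s are heme enzymes, mostly held on the endoplasmic reticulum, that insert an oxygen atom into their substrates with electrons passed on from NADPH by a reductase. They oxidise fatty acids for cutin and wax, sterols and carotenoids, and in maize they build the benzoxazinoids, a class of defence compounds. The CYP78A family, which includes *KLU* of *Arabidopsis*, promotes the growth of floral organs, ovules and seeds without entering a known hormone pathway.

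RNA was sequenced from 3 libraries of *ifc* ovaries and 3 libraries of WT ovaries of the inbred line Yu-A474, sampled before pollination with glumes, lemma and palea removed and grown without stress. The labels call the groups IFC mutant and wild type. According to the methods, the *ifc* and normal ovaries of a set were neighbours on 1 ear, so that the names stand for ovary phenotypes rather than for plants of different genotype, and the phenotype is partially penetrant. The table holds 1 FPKM (sequenced fragments scaled to transcript length and to library size) for *ifc* and 1 for WT in each row, pooled by the authors over the libraries. All FPKM below are these pooled values, and no SD or test is given, since the authors' own test was not used and the pooled values allow none.

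The ovary label was checked with markers. Rows matching 5 of 6 carpel and ovule identity genes were found, 13 rows in all, at 4.71 to 695 FPKM in *ifc* and 5.45 to 754 FPKM in WT. None was called, but 12 of the 13 were lower in *ifc*, while 48.7% of all rows were higher. A *CRC* match (GRMZM2G102218, 47.5 FPKM in *ifc* and 70.9 FPKM in WT) lay just inside 1.5-fold. So did a *SEP3* match (GRMZM2G102161, 195 FPKM in *ifc* and 288 FPKM in WT). The 13 rows summed to 3014 FPKM in *ifc* and 3310 FPKM in WT. The part of this in the P450 differences was not tested. Of 5 anther and pollen markers only *AMS* was found, at 0.452 FPKM in *ifc* and 0.119 FPKM in WT, and of 4 photosynthetic markers only *PSAD-1*, at 14.5 FPKM in *ifc* and 17.5 FPKM in WT. In whole ovaries, fewer cells of a type and less RNA per cell cannot be told apart. A single row, listed at 0 in *ifc*, held 55.6% of the summed WT FPKM. Giving both phenotypes an equal total therefore adds 1.13 to the log2 ratio of every row before the pseudocount, and all directions below are relative to the authors' own scaling.

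Most P450 genes had like levels in *ifc* and WT ovaries, and of those past 1.5-fold more were higher than lower in *ifc*. A row was called when its FPKM differed by more than 1.5-fold and was above 2 in *ifc* or WT, which are the fold and level criteria of the study without its p-value. Of the 101 rows, 63 reached that level, and among them 10 were called higher (15.9%) and 1 was called lower (1.59%). Over the whole table, 4.13% of 21093 rows were called higher and 2.55% were called lower. Of the 10, 4 reached the level in *ifc* alone. With more than 2 FPKM required in both phenotypes, 6 of 55 P450 rows were higher and 1 was lower, compared with 3.01% and 1.93% of all rows. Without the 2 reductases, 9 of 61 rows were called higher and 1 was called lower. The median log2 ratio, taken as log2 of (*ifc* FPKM + 1)/(WT FPKM + 1), was 0.10 over the P450 rows and -0.0069 over all rows, and 60 P450 rows (59.4%) lay above 0, compared with 48.7% of all rows. No P450 row was listed at 0, and 76 lay within 1.5-fold. With no filter on level, 22 of the 101 were past 1.5-fold higher and 3 lower, beside 7.40% and 3.43% of all rows. A smaller part of the P450 rows than of all rows thus lay within 1.5-fold. Equal totals turn 76 rows into higher calls and leave no lower call, as they do for 96.9% of all rows that reach the level.

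**Figure D1:**
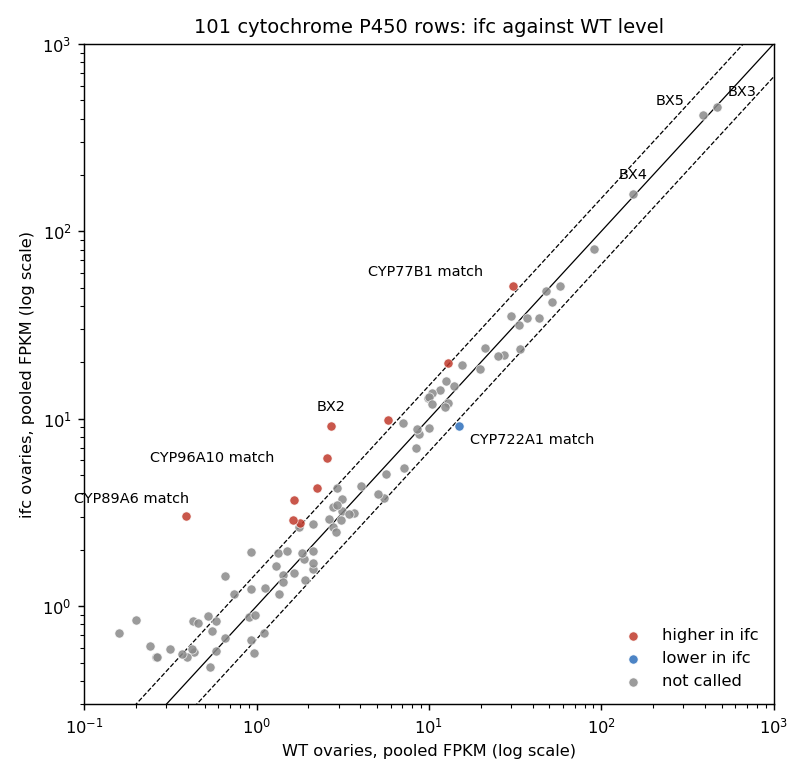
Pooled FPKM of the 101 P450 rows in *ifc* ovaries (vertical axis) against WT ovaries (horizontal axis), both on log scales. The solid line marks equal levels and the dashed lines 1.5-fold. The 10 rows called higher in *ifc* are red, the 1 called lower is blue and all others are grey; rows above the upper dashed line at 2 FPKM or less were not called.

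The levels themselves covered a wide range. The lowest FPKM was 0.474 in *ifc* and 0.158 in WT, the median was 3.12 in *ifc* and 2.69 in WT, and the medians over all rows were 9.40 in *ifc* and 9.47 in WT. Genes of the benzoxazinoid pathway dominated the class. The 3 most abundant rows, *BX3*, *BX5* and *BX4*, summed to 1035 FPKM in *ifc* and 1010 FPKM in WT, which was 54.1% of all P450 FPKM in *ifc* and 53.9% in WT.

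The share of rows past 1.5-fold depended on the level, both for the P450s and for the whole table. At a mean of both phenotypes of at most 2 FPKM, 31.7% of 41 P450 rows and 23.9% of all rows were more than 1.5-fold higher in *ifc*. At a mean above 2 and up to 10 FPKM, 22.6% of 31 P450 rows were, compared with 5.26% of all rows. Above 10 FPKM the share was 6.90% of 29 P450 rows and 2.61% of all rows. In the lowest class 65.9% of the P450 rows lay above equality, compared with 62.2% of all rows, and 41 of the 101 P450 rows but 4663 of the 25368 rows fell in it. In the middle class the shares above equality were 58.1% of the P450 rows and 46.4% of all rows, and in the highest 51.7% of the P450 rows and 45.2% of all rows. With classes by the higher value of the pair, the middle class held 8 P450 rows past the fold, 23.5% against 5.93% of all rows, of which 4 entered it through *ifc* alone. These 4 were GRMZM2G181236, GRMZM2G168382, GRMZM2G123309 and GRMZM2G014395. All but GRMZM2G181236 were also in the middle class by the mean, with 1.66, 1.63 and 1.79 FPKM in WT. Only their *ifc* values put that mean above 2, so the 22.6% also includes rows that entered through *ifc*.

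**Figure D2:**
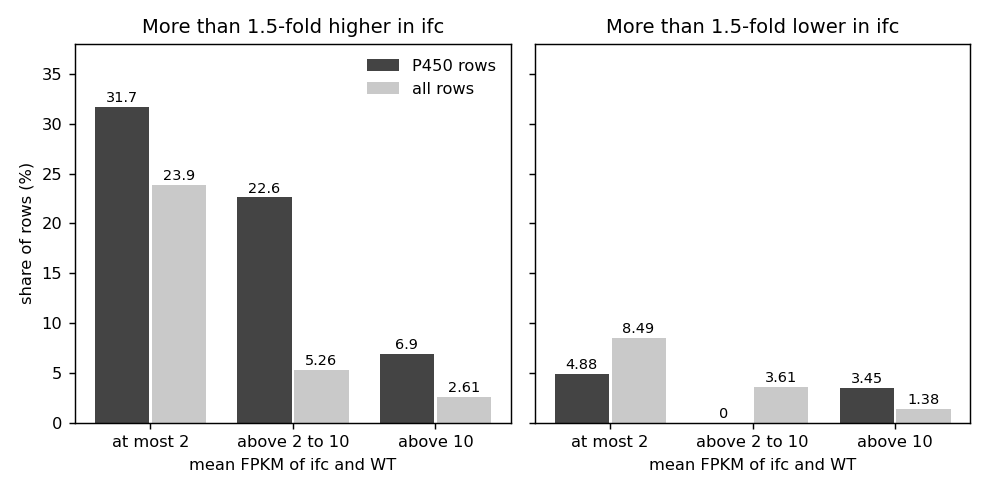
Share of rows (%) more than 1.5-fold higher (left) or lower (right) in *ifc* ovaries, by the mean FPKM of *ifc* and WT, for the P450 rows (dark bars) and all rows (light bars). In the class above 2 and up to 10 FPKM, 22.6% of the P450 rows and 5.26% of all rows were higher, and none of the P450 rows was lower. In that class, GRMZM2G168382, GRMZM2G123309 and GRMZM2G014395 were above 2 FPKM in *ifc* alone.

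Among the KLU-type CYP78A genes, none of 6 was called, and 4 were higher and 2 lower in *ifc*. GRMZM2G092823, described as CYP78A53 and matched to CYP78A9, which enlarges fruits and seeds when overexpressed in *Arabidopsis*, had the highest level, with 15.9 FPKM in *ifc* and 12.5 FPKM in WT, a log2 ratio of 0.32. It lies on chromosome 1 at 207572005 to 207574422 on the plus strand (B73 RefGen_v3, as are all coordinates here). GRMZM2G034471, matched to CYP78A6, had 3.94 FPKM in *ifc* and 5.09 FPKM in WT. The second CYP78A6 match, GRMZM2G104783, differed in the other direction, with 1.97 FPKM in *ifc* and 1.499 FPKM in WT. Both CYP78A10 matches were slightly higher in *ifc*: GRMZM2G470442 had 3.45 FPKM in *ifc* and 2.92 FPKM in WT, and GRMZM2G138008 had 2.91 FPKM in *ifc* and 2.63 FPKM in WT. GRMZM2G167986, described as CYP78A1, was the only one of the 6 past 1.5-fold, at 0.719 FPKM in *ifc* and 1.11 FPKM in WT, and it stayed below the level needed for a call. The order from CYP78A53 down to CYP78A1 was the same in both phenotypes, and without replicates it is not known which neighbours in that order differ beyond their spread.

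The benzoxazinoid P450s differed from each other in level and in the size of their difference between *ifc* and WT. *BX2* to *BX5* encode the P450s that in turn oxidise indole to the benzoxazinoid DIBOA, and all belong to CYP71C in maize although their matches here are CYP71A and CYP71B. *BX2* (GRMZM2G085661, indole-2-monooxygenase, chromosome 4, 3265212 to 3267368, plus strand), the first of them, had 9.18 FPKM in *ifc* and 2.69 FPKM in WT, which was 3.41-fold and a log2 ratio of 1.46. The enzymes after it were far more abundant and nearly level. *BX3* (GRMZM2G167549) had 461 FPKM in *ifc* and 468 FPKM in WT. *BX4* (GRMZM2G172491) had 158 FPKM in *ifc* and 153 FPKM in WT. *BX5* (GRMZM2G063756) had 415 FPKM in *ifc* and 390 FPKM in WT. Thus only the least abundant of the 4 was called.

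Of 11 rows listed as benzoxazinoid genes or as described indole-3-glycerol phosphate lyases, 3 were called higher (27.3%) and none lower, and their median log2 ratio was 0.09, beside 4.13%, 2.55% and -0.0069 for all rows. *BX2*, already counted among the P450 calls, was 1 of the 3. *BX1* (GRMZM2G085381), which releases the indole that BX2 oxidises, had 7.47 FPKM in *ifc* and 3.29 FPKM in WT, 2.27-fold. *BX6* (GRMZM6G617209), a dioxygenase that hydroxylates the glucoside of DIBOA, had 52.0 FPKM in *ifc* and 32.1 FPKM in WT, 1.62-fold. The glucosyltransferases that store the products were not called. *BX8* (GRMZM2G085054) had 134 FPKM in *ifc* and 128 FPKM in WT, and *BX9* (GRMZM2G161335) had 70.4 FPKM in *ifc* and 56.2 FPKM in WT. The other 3 rows described as lyases lay near equality, as with GRMZM2G046191 (*igl1*) at 39.4 FPKM in *ifc* and 35.9 FPKM in WT.

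**Figure D3:**
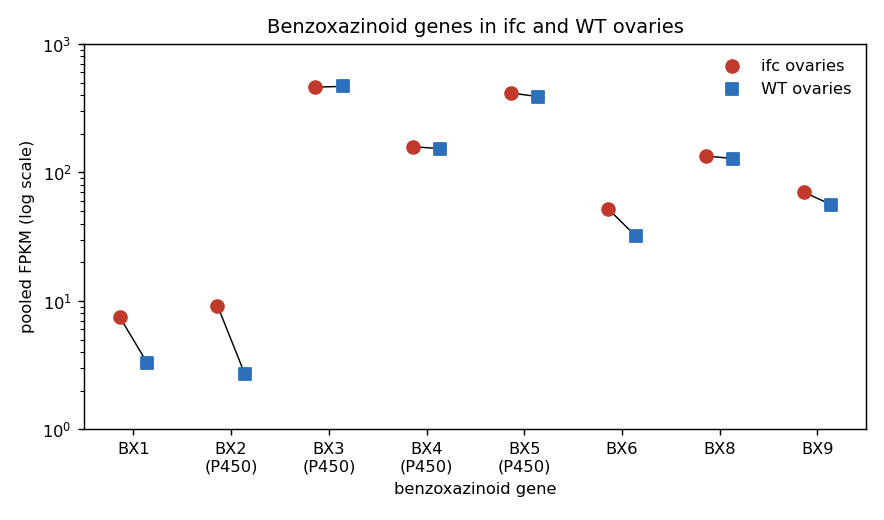
Pooled FPKM (log scale) of the 8 genes with a benzoxazinoid name in *ifc* ovaries (circles) and WT ovaries (squares), in the order of their numbers, with a line joining the pair. *BX1* and *BX2* stand lowest and have the steepest lines, and *BX3*, *BX4* and *BX5* lie between 153 and 468 FPKM with nearly flat lines.

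Of the 8 named genes, 6 were neighbours near the start of chromosome 4, where *BX3*, *BX4*, *BX5*, *BX8*, *BX1* and *BX2* fell within 264 kb and 7 rows of the table. *BX6* lay 1960602 bases from *BX8* on the same chromosome, and *BX9* lay on chromosome 1. *BX1* and *BX2* stood next to each other on the plus strand with 2206 bases between them. The row before *BX1*, GRMZM2G085303, had 9.25 FPKM in *ifc* and 9.78 FPKM in WT.

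Families CYP71, CYP76, CYP81, CYP89, CYP93 and CYP706 belong to clan 71, the branch of plant P450s with most enzymes of specialised metabolism. These families made up 41 rows, the BX genes included. Of the 20 that reached the level, 3 were called higher (15%, beside 4.13% of all rows) and none lower, and GRMZM2G181236 and GRMZM2G168382 reached it in *ifc* alone. With more than 2 FPKM required in both phenotypes, 17 rows remained and only *BX2* was called, where 3.01% of all rows were called higher. The widest ratio of all 101 rows was that of GRMZM2G181236 (chromosome 1, 223848695 to 223851146, minus strand), matched to CYP89A6, with 3.03 FPKM in *ifc* and 0.388 FPKM in WT, 7.81-fold. A member of its family, CYP89A9, takes part in the breakdown of chlorophyll in *Arabidopsis*. The low WT level makes the log2 ratio depend on the pseudocount: it was 1.54 with 1 and 2.68 with 0.1. The other 4 CYP89A6 matches did not share the direction as a set, since 1 was higher and 3 were lower. GRMZM2G135536 had 0.841 FPKM in *ifc* and 0.199 FPKM in WT, and GRMZM2G030831, the most abundant, had 34.5 FPKM in *ifc* and 43.3 FPKM in WT. These 2 were chosen after their values were seen.

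GRMZM2G168382 (chromosome 2, 113028380 to 113030682, minus strand), matched to CYP71B37 as is *BX2*, was called higher, with 3.69 FPKM in *ifc* and 1.66 FPKM in WT. A CYP71B37 match that was not called, GRMZM2G015542, had 0.835 FPKM in *ifc* and 0.427 FPKM in WT, so that all 3 matches of this *Arabidopsis* gene were higher in *ifc*. The 4 CYP71B7 matches were also all higher, by log2 ratios of 0.03 to 0.43, and none was called. Of 6 rows in CYP81, a family whose maize CYP81A members oxidise herbicides, 5 were higher in *ifc* and none was called. The most abundant of them, GRMZM2G132450, described as CYP81N5, was the exception, with 21.9 FPKM in *ifc* and 27.4 FPKM in WT.

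The remaining rows of these clan 71 families with levels above 10 FPKM differed little. GRMZM2G074871, matched to CYP71B7, had 35.4 FPKM in *ifc* and 29.8 FPKM in WT. GRMZM2G135387, matched to CYP71B34, had 34.3 FPKM in *ifc* and 37.2 FPKM in WT. GRMZM2G397402, whose match CYP71A13 serves the synthesis of the defence compound camalexin in *Arabidopsis*, had 19.3 FPKM in *ifc* and 15.6 FPKM in WT. None of these came near 1.5-fold, while the less abundant GRMZM2G123446, also a CYP71B7 match, lay just inside it at 4.25 FPKM in *ifc* and 2.91 FPKM in WT. The 3 CYP76 rows and the single rows of CYP93 and CYP706 had at most 2.13 FPKM in either phenotype and none was called.

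A further 12 P450 rows were past 1.5-fold higher in *ifc* but had no more than 2 FPKM in either phenotype. They were 31.6% of the 38 P450 rows at this level, compared with 23.6% of all rows at this level. The widest of the 12 was GRMZM2G147774, matched to CYP72A15, with 0.722 FPKM in *ifc* and 0.158 FPKM in WT. On the other side, GRMZM2G066784, the only CYP721A1 match, was past 1.5-fold lower, with 0.559 FPKM in *ifc* and 0.970 FPKM in WT, beside the CYP78A1 row given above. Among rows at this level 7.74% of the whole table and 5.26% of the P450s were lower to that extent.

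**Figure D4:**
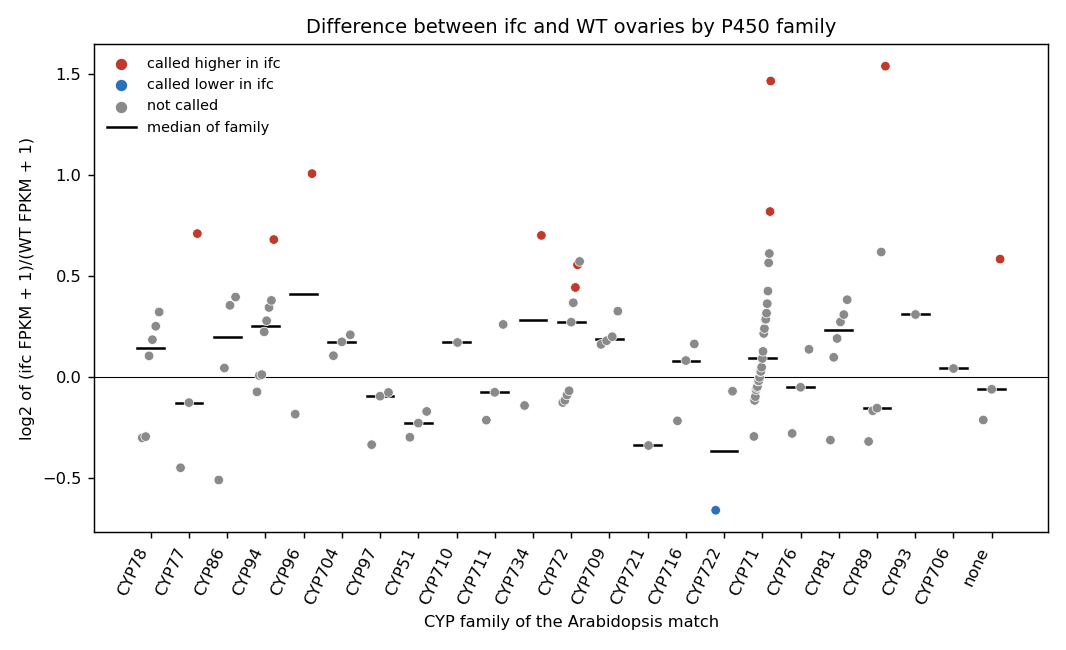
Log2 of (*ifc* FPKM + 1)/(WT FPKM + 1) for each of the 101 rows by the CYP family of the *Arabidopsis* match, with the 3 rows of no family at the right. Short lines are family medians. Red points are the 10 rows called higher in *ifc*, which run from 0.44 to 1.54, and the blue point is the CYP722A1 match at -0.66.

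Fatty acid hydroxylases of families CYP77, CYP86, CYP94, CYP96 and CYP704 formed the second large group, with 20 rows, 15 of them higher in *ifc* (75%, beside 48.7% of all rows), and a median log2 ratio of 0.19. Of the 16 that reached the level, 3 were called higher (18.8%, beside 4.13% of all rows) and none lower. These families make the hydroxylated acids and alcohols of cutin and wax, and some members oxidise jasmonate conjugates. AC209987.4_FG002 (chromosome 5, 46807671 to 46810899, plus strand), matched to CYP77B1, was the most abundant of all called P450 rows, with 50.8 FPKM in *ifc* and 30.7 FPKM in WT, 1.66-fold. The other CYP77 rows were lower in *ifc*. GRMZM2G094273 had 3.76 FPKM in *ifc* and 5.49 FPKM in WT, and GRMZM2G057086 had 5.09 FPKM in *ifc* and 5.65 FPKM in WT.

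The 2 matches of CYP96A10, whose family holds the mid-chain alkane hydroxylase of *Arabidopsis* stem wax, had opposite directions. GRMZM2G057514 (chromosome 9, 152330060 to 152332084, plus strand) was called higher, with 6.14 FPKM in *ifc* and 2.56 FPKM in WT, 2.40-fold. GRMZM2G323830, the most abundant of the fatty acid hydroxylases by the mean of both phenotypes, had 50.9 FPKM in *ifc* and 57.9 FPKM in WT.

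CYP94C1 of *Arabidopsis* oxidises the jasmonate-isoleucine conjugate, a step that lowers the active hormone. In the whole CYP94 family, 7 of 8 rows were higher in *ifc* (87.5%, beside 48.7% of all rows). Among these 8, 4 were CYP94D2 matches with at most 1.97 FPKM in *ifc* and 2.13 FPKM in WT, 3 of them higher in *ifc*. Those 3 had at most 0.673 FPKM in *ifc* and 0.659 FPKM in WT. Of all rows with no more than 2 FPKM in either phenotype, 62.7% were higher in *ifc*. Of the 4 CYP94C1 matches, GRMZM2G396248 (chromosome 8, 166450673 to 166452870, plus strand) was called higher, with 9.86 FPKM in *ifc* and 5.78 FPKM in WT, 1.71-fold. The most abundant, GRMZM2G171139, was at 48.3 FPKM in *ifc* and 48.0 FPKM in WT. GRMZM2G159179 had 13.0 FPKM in *ifc* and 10.02 FPKM in WT, and GRMZM2G016264 had 3.40 FPKM in *ifc* and 2.77 FPKM in WT. The 4 thus ran from near equality to 1.71-fold, with none lower in *ifc*.

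No CYP86 row, the family of the omega-hydroxylases of cutin, was called. The match of ATT1 (CYP86A2), an enzyme of cutin synthesis in *Arabidopsis*, GRMZM2G062151, had 13.0 FPKM in *ifc* and 9.92 FPKM in WT. GRMZM2G097116, matched to CYP86A7, differed in the other direction, with 23.5 FPKM in *ifc* and 33.9 FPKM in WT, a log2 ratio of -0.51, just inside 1.5-fold. All 3 CYP704A2 matches were higher in *ifc* by 0.11 to 0.21 on the log2 scale.

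The sterol and carotenoid enzymes were mostly slightly lower in *ifc*, with no call. Of 4 sterol rows 1 was higher in *ifc*, and of 3 carotenoid rows 0. Over all rows 48.7% were higher, and of those with a mean above 10 FPKM 45.2%. With so few rows, a lean apart from that of all rows cannot be told. CYP51 removes a methyl group in sterol synthesis, and its 3 matches were all lower in *ifc*, with a median log2 ratio of -0.23. The most abundant, GRMZM5G899349, had 81.0 FPKM in *ifc* and 91.3 FPKM in WT. The single row of CYP710, a sterol desaturase family, had 11.9 FPKM in *ifc* and 10.5 FPKM in WT. CYP97 enzymes hydroxylate the rings of carotenoids, and all 3 were lower in *ifc*, among them GRMZM5G837869, matched to CYP97A3, with 18.5 FPKM in *ifc* and 19.8 FPKM in WT. GRMZM2G143202, described as carotene epsilon-ring hydroxylase, had 5.45 FPKM in *ifc* and 7.14 FPKM in WT.

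Some of the rows act on hormones although their families were not among those left out. GRMZM2G045319 (chromosome 5, 110046423 to 110049600, plus strand), matched to BAS1 (CYP734A1), which inactivates brassinosteroids in *Arabidopsis*, was called higher, with 4.28 FPKM in *ifc* and 2.25 FPKM in WT, 1.90-fold. The second BAS1 match, GRMZM2G138750, was more abundant and not called, with 8.95 FPKM in *ifc* and 9.97 FPKM in WT. MAX1 (CYP711A1) oxidises a precursor of strigolactones, and none of its 3 matches was called. GRMZM2G070508 had 2.88 FPKM in *ifc* and 3.09 FPKM in WT, while GRMZM2G023952 (*MAX1b*) had 2.76 FPKM in *ifc* and 2.14 FPKM in WT, and GRMZM2G018612 (*MAX1a*) had 0.663 FPKM in *ifc* and 0.928 FPKM in WT.

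The only P450 called lower was GRMZM2G363429 (chromosome 8, 134986784 to 134989043, plus strand), matched to and described as CYP722A1, with 9.11 FPKM in *ifc* and 14.97 FPKM in WT, a log2 ratio of -0.66. With equal totals its ratio became 0.39. The second CYP722A1 match, GRMZM2G168016, was far less abundant, with 0.892 FPKM in *ifc* and 0.986 FPKM in WT, and its locus has another row without annotation at 2.74 FPKM in *ifc* and 1.97 FPKM in WT. The 3 CYP716A1 matches, of the same clan 85, were not called. GRMZM2G153119, the row without a family, was also lower in *ifc* and not called, with 21.6 FPKM in *ifc* and 25.2 FPKM in WT.

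Among the clan 72 families CYP72, CYP709 and CYP721, 7 of 14 rows reached the level. Of these, 2 were called higher (28.6%, beside 4.13% of all rows) and none lower. Both calls were CYP72A14 matches and reached the level in *ifc* alone. With more than 2 FPKM required in both phenotypes, 5 rows remained and none was called. GRMZM2G123309 (chromosome 8, 145302144 to 145304754, plus strand) had 2.87 FPKM in *ifc* and 1.63 FPKM in WT, 1.76-fold. GRMZM2G014395 (chromosome 3, 217177060 to 217180016, minus strand) had 2.79 FPKM in *ifc* and 1.79 FPKM in WT, 1.56-fold. The most abundant CYP72A14 match, GRMZM2G370745, was not called, with 14.2 FPKM in *ifc* and 11.6 FPKM in WT, and of the 4 CYP72A15 matches 1 was higher and 3 were lower. All 4 CYP709B2 matches were higher in *ifc* by 0.16 to 0.33 on the log2 scale, with none above 3.73 FPKM in *ifc* and 3.12 FPKM in WT.

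Electrons reach P450s through NADPH-P450 reductase, with cytochrome b5 as a second donor. Of 15 rows of these partners and of cytochrome b5 reductases, 2 were called higher (13.3%, beside 4.13% of all rows) and none lower, with a median log2 ratio of 0.15, beside -0.0069. The reductase AC217947.4_FG002 (chromosome 4, 71563276 to 71568711, plus strand) had 19.8 FPKM in *ifc* and 12.9 FPKM in WT, 1.54-fold. It is already counted among the 10 rows called higher of the 101. The other 3 matches of the *Arabidopsis* reductase ATR2 were slightly lower in *ifc*. GRMZM2G086489, the most abundant, had 58.4 FPKM in *ifc* and 60.04 FPKM in WT, and GRMZM2G104294 had 31.8 FPKM in *ifc* and 33.2 FPKM in WT. A cytochrome b5, GRMZM2G135385, was the second call, with 3.52 FPKM in *ifc* and 2.30 FPKM in WT.

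Of the 40 P450 rows of the 12 families left out, 28 reached the level. Among these, 2 were called higher (7.14%) and 1 lower (3.57%), beside 4.13% and 2.55% of all rows. The 40 rows had a median log2 ratio of 0.06. Higher in *ifc* were 24 of them (60%, beside 59.4% of the 101 rows and 48.7% of all rows). The higher calls were GRMZM2G002178, an allene oxide synthase of jasmonate synthesis, with 7.26 FPKM in *ifc* and 4.19 FPKM in WT, and GRMZM2G138074, matched to CYP98A3 of the lignin pathway, with 24.1 FPKM in *ifc* and 16.0 FPKM in WT. GRMZM2G126505, matched to CYP707A1, which breaks down abscisic acid, was lower, with 4.91 FPKM in *ifc* and 7.39 FPKM in WT. No test of the difference between these rows and the 101 was possible.

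Position was the last property that the choice of rows did not use. The 11 called rows lay on 7 chromosomes and fell in 8 families, beside the reductase. Where neighbouring P450 rows with gaps of at most 500 kb were joined, 33 rows formed 13 runs, 9 of them of a single family. In 7 runs all rows were higher in *ifc*, in 1 run all were lower, and 5 runs held both directions. The CYP72 run on chromosome 3 held 4 rows in 259 kb with 3 higher and 1 lower, and that on chromosome 8 held 4 rows in 168 kb with 2 higher and 2 lower. Each had 1 called row. Neighbours of 1 family can share reads where their sequences are near identical, and the part of this in their values was not tested. No called row overlapped another row of the table.

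**Figure D5:**
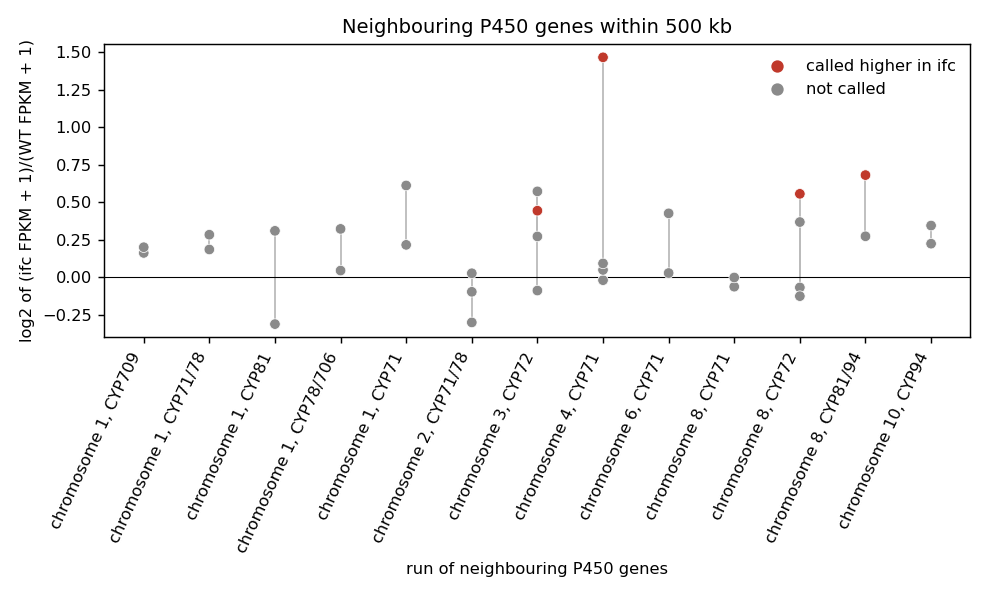
Log2 of (*ifc* FPKM + 1)/(WT FPKM + 1) for the 33 P450 rows in 13 runs of neighbours, 1 column per run named by its chromosome and CYP family. Red points are rows called higher in *ifc*. The run on chromosome 4 is that of *BX2* to *BX5*, where *BX2* at 1.46 stands above the other 3 rows, which lie between -0.02 and 0.09.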

How the data were processed

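The authors trimmed paired-end reads with Trimmomatic, aligned them to B73 RefGen_v3 with TopHat2, kept exonic reads with BEDTools and computed FPKM with Cufflinks and Cuffdiff, with quartile normalization and corrections for sequence bias and for reads that map to several places. The deposited FPKM are 1 pooled value per row for *ifc* and 1 for WT. The table holds no counts and no values per library, so depth, counting intervals and replicate spread could not be given for a value. The methods call the libraries strand-specific, while the labels name a kit without that property, so reads of genes that overlap on opposite strands may not be separated. A further 6 columns with the authors' own comparison (ratio, log2 ratio, direction, p-value, q-value and significance) were not used.

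Ratios were computed from the FPKM, log2 ratios with a pseudocount of 1, and rows were called above 1.5-fold with an FPKM above 2 in *ifc* or WT. No test was run. The P450 rows, the gene lists and the comparisons were chosen with earlier results of these data known. The pattern for cytochrome b5 was narrowed and RefSeq names of benzoxazinoid genes were added after the table had been seen. The named genes were all called rows, all CYP78 rows, the most abundant row of each role group, the 5 most abundant rows, and called genes of the lists. Others were chosen after their values were seen, among them the further matches of an *Arabidopsis* gene with a named row. RefSeq names were found for 62 of the 101 rows by gene identifier, from an assembly of another build used for names only. Sequences were not analysed here. The counting of calls was tested on simulated data. Classes by mean level were added after the data had been seen. Alternatives changed the pseudocount, the level and fold thresholds, the scaling, the rows per gene and the choice of rows. Python 3.11.15 with numpy 2.4.6, pandas 2.3.3 and matplotlib 3.10.9 was used.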

Additional observations from a re-analysis of the deposited data

How the results depend on the processing

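The count of P450 rows higher in *ifc* was 10 of 63 at the thresholds used. It was 22 of 101 with no filter on level, 2 of 29 with an FPKM above 10, 4 of 63 with a fold above 2 and 76 of 78 with equal totals. With an FPKM above 2 in both phenotypes, an alternative chosen after seeing the data, it was 6 of 55. The count lower was 1 of 63 at the thresholds used, 3 of 101 with no filter and 0 of 63 with a fold above 2. It was 0 of 78 with equal totals, and 2 of 63 with equal totals after the highest row was left out. Over all rows, the share higher was 7.40% with no filter, 2.95% above 10 FPKM, 1.43% with a fold above 2, 96.9% with equal totals and 3.01% above 2 FPKM in both. The share lower over all rows was 3.43% with no filter, 0.612% with a fold above 2 and 0.235% with equal totals. It was 3.22% with equal totals after the highest row was left out. The median log2 ratio of 0.10 was 0.95 with equal totals, where that of all rows was 1.00, and 0.0077 over rows above 10 FPKM. Equal upper quartiles gave 11 higher and 1 lower of 64, beside 4.45% and 2.35% of all rows. Equal totals also reversed GRMZM2G363429 to 0.39 and moved 26 of the 28 named rows. No paired analysis was possible because the deposited values are pooled over the libraries of a phenotype, and for the same reason no library could be left out. Differences near 1.5-fold and all values of a few FPKM therefore have no measure of error.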
